A study of Homo sapiens with 4 samples.

Results

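This report covers 30 listed genes in darolutamide-resistant prostate cancer cells. They are SCP2, 12 peroxins, enzymes and membrane proteins of the peroxisome, and MPV17, which is now placed in the inner mitochondrial membrane. They were taken from the 60606 genes of the deposited count table by gene symbol, and all 30 symbols were found. RNA had been sequenced from DaroR cells, which are LNCaP cells grown in rising and then constant darolutamide, an antagonist of the androgen receptor. LNCaP is an established line of androgen receptor-positive prostate cancer cells. The 2 siControl libraries came from DaroR cells transfected with control siRNA, and the 2 siLOC730101 libraries from DaroR cells transfected with a pool of siRNAs against the long non-coding RNA LOC730101. All 4 libraries thus share the resistant line and its transfection, and parental LNCaP cells were not analysed here. The comparison asks how peroxisomal transcripts differ when LOC730101 is depleted in 1 resistant line. The members were listed with results of this comparison known, and SCP2, after which the list is named, was among the genes that had passed the test. The fold changes and p-values of members are therefore given as a description of these libraries.

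Peroxisomes are small organelles, bounded by a single membrane, that shorten very long and branched fatty acids, start the synthesis of ether lipids and break down hydrogen peroxide. They hold no DNA, so every protein is made in the cytosol and imported by the peroxins, which recognise targeting signals, form the import pore and recycle the receptors. Peroxisomal oxidation of branched fatty acids has long been noted in prostate cancer, where the racemase AMACR is used as a tissue marker.

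The study examined LOC730101 as a competitor of miR-1-3p, so the 3′ ends of the members were searched for the seed match of this miRNA. The mature sequence is shown because its seed defines the sites. It is given by RefSeq for MIR1-1 at chr20:62554351-62554372 on the plus strand (GRCh38.p14), with the seed, bases 2 to 8, in capitals.

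hsa-miR-1-3p: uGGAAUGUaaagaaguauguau

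A site was counted where the annotated 3′ untranslated region of the MANE Select transcript held ACATTCC (7mer-m8), CATTCCA (7mer-A1) or ACATTCCA (8mer) on the transcript strand. Of the 29 members that were tested, 4 held a site (13.8%), as did 2965 of 13357 tested genes with such a transcript (22.2%). These members were AMACR, CROT, PEX2 and PEX26, each with a single site. The median 3′ untranslated region was 771 nucleotides for the tested members and 1308 for all tested genes with a transcript. The part of this length in the shares was not tested. The matches in PEX26, AMACR and CROT are shown as examples of the letters complementary to the seed. The 7mer-m8 match in PEX2 is not shown. Capitals mark the match, and positions are on GRCh37, the build of the transcript annotation.

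PEX26, chr22:18571122-18571147, plus strand, 8mer: actgtgtccatgaaACATTCCAtctt

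AMACR, chr5:33988706-33988731, minus strand, 8mer: atctccctctaagcACATTCCAaact

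CROT, chr7:87028044-87028069, plus strand, 7mer-m8: aatgttgacttgctaACATTCCttta

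The 3′ untranslated region of SCP2 (994 nucleotides) held 0 matches, and so did those of MPV17, ACAA1, PEX5 and PEX10. Of the 4 members with a site, 2 had a log2 fold change above 0 (PEX2 and CROT) and 2 below 0 (PEX26 and AMACR). Their median log2 fold change was -0.059, beside 0.092 for the other members. The first of these medians lies between PEX26 (-0.18) and CROT (0.063). Over all tested genes with a transcript the medians were -0.0090 with a site and 0.026 without. Fold changes also fell with exon length among genes above 10 CPM, as given below. The part of length in these medians was not tested. A match is a description of the letters and not a measured binding site.

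The libraries held 39213498 to 53368158 counts. The targeted RNA (ENSG00000216775, chr6:52664366-52669155 on GRCh38) had 47.4 and 50.6 normalized CPM (counts scaled to the size of the library) in siControl against 15.4 and 17.9 CPM in siLOC730101, and fell by 66.0% after siLOC730101 (log2 fold change -1.56, SE 0.12, adjusted p = 4.34e-06 in edgeR). All 10 luminal prostate markers were present, with mean levels of 348.8 to 2328 CPM. Of 19 markers of fibroblasts, leukocytes, endothelium and basal epithelium, 7 were at 0 in every library and 4 exceeded a mean of 1 CPM, led by COL1A1 at a mean of 12.9 ± 2.63 CPM (SD, n = 2) for siControl against 11.6 ± 0.84 CPM (SD, n = 2) for siLOC730101. Their summed level was 26.1 to 27.7 CPM in siControl and 22.6 to 25.1 CPM in siLOC730101.

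SCP2 was the 1 member that changed past the threshold after siLOC730101, and it was lower by 26.4%. The gene lies on chromosome 1 of GRCh38 from 52927276 to 53051698 and encodes sterol carrier protein 2, a lipid transfer protein of the peroxisome, together with SCPx, a longer product that carries a thiolase for branched-chain acyl-CoA. Its counts were 10219 and 9480 for the siControl libraries, against 5915 and 5477 for the siLOC730101 libraries. Its normalized level was 189.0 and 202.5 CPM in siControl, against 144.0 and 144.3 CPM in siLOC730101. Both siLOC730101 libraries lay below both siControl libraries, and they differed from each other by less than the siControl libraries did. The means were 195.8 ± 9.54 CPM (SD, n = 2) and 144.1 ± 0.21 CPM (SD, n = 2). The log2 fold change was -0.44 (SE 0.076, adjusted p = 0.0187, edgeR's quasi-likelihood test over 19349 genes with Benjamini-Hochberg adjustment).

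In bulk RNA, fewer cells expressing SCP2 and less SCP2 RNA in each cell cannot be told apart. In the count table all transcripts of SCP2 are summed, so the short and the long product could not be told apart. Of the exon bases of SCP2, 20.8% also lie in exons of other genes, mostly of the pseudogene TUBBP10, which had 0 to 3 counts in a library. Across the 19349 genes tested, 14 genes (0.0724%) were lower and 41 genes (0.212%) were higher at an adjusted p under 0.05. SCP2 ranked 34 of all genes by p and 9 among the lower genes. The call was lost when siControl replicate 2 was left out, where the log2 fold change was -0.39 with an adjusted p of 0.128 in edgeR. In the other 13 alternatives the log2 fold change lay between -0.49 and -0.43, and the call was kept. SCP2 made up 9.37% and 9.90% of the summed CPM of the members in siControl, and 7.01% and 6.87% in siLOC730101, while that sum itself was 2018 and 2046 CPM in siControl and 2055 and 2100 CPM in siLOC730101.

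**Figure D1:**
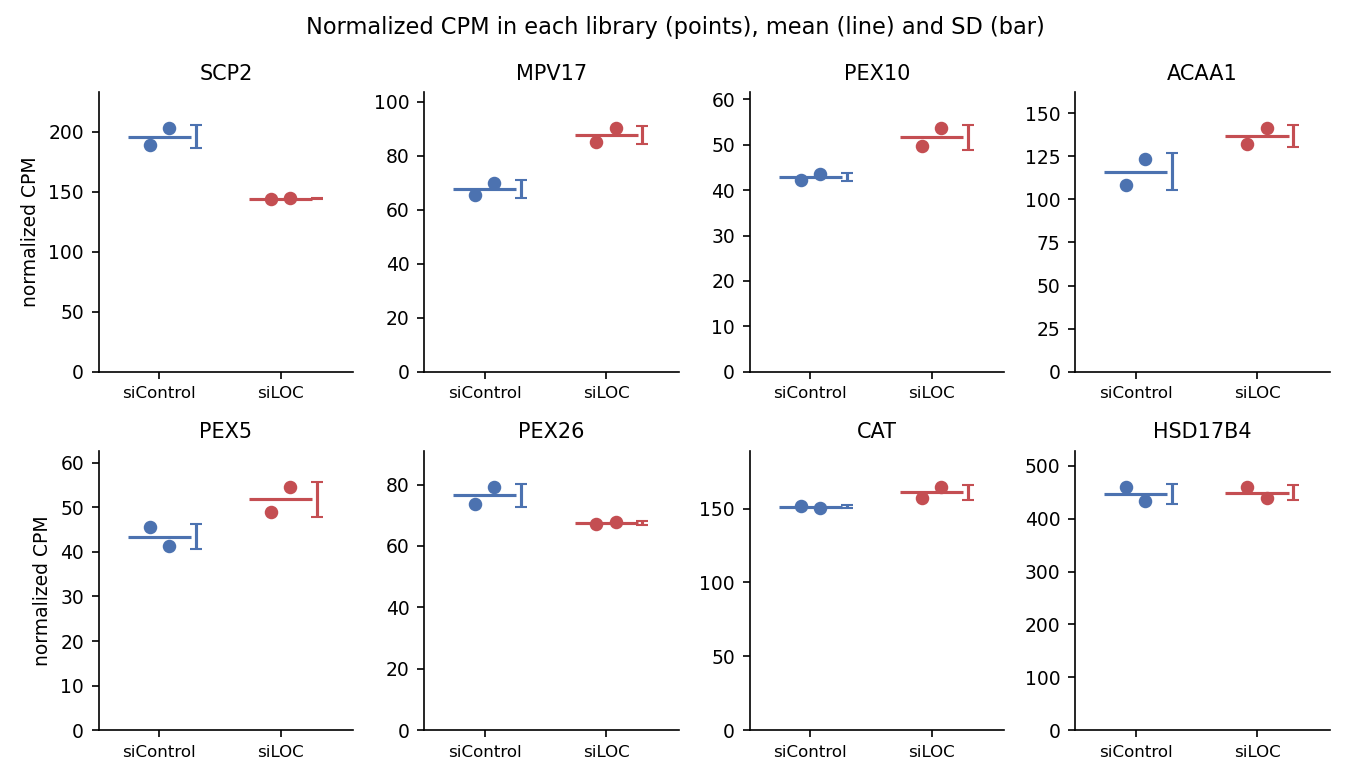
Normalized CPM (y axes, from 0) of 8 members in the 2 siControl and 2 siLOC730101 libraries; points are libraries, lines are group means and bars are SDs; siLOC stands for siLOC730101. SCP2 lies at 144.0 and 144.3 CPM in siLOC730101 below 189.0 and 202.5 CPM in siControl, MPV17 lies higher in siLOC730101, and HSD17B4 overlaps between the groups.

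Among the 29 members tested, 1 was lower and 0 were higher at an adjusted p under 0.05 in edgeR. DESeq2 called 1 higher at the same threshold (MPV17), beside 234 higher of 31960 genes. These 31960 genes include some to which DESeq2 gave no adjusted p, such as AMACR, PXMP2 and PEX11A, and which could not be called. At an unadjusted p under 0.05, 1 member was lower (SCP2) and 4 were higher (MPV17, PEX10, ACAA1 and PEX5), where the shares over all genes tested were 4.39% lower and 6.43% higher. In 2 members both siLOC730101 libraries lay below both siControl libraries (SCP2 and PEX26), and in 12 members they lay above. Over all genes tested, 20.5% did not overlap and were lower and 21.3% did not overlap and were higher. In both directions together, the share of members without overlap was 48.3%, near the 47.0% of the 9886 genes with a mean above 10 CPM. Of those 9886 genes, 2788 were higher and 1860 were lower without overlap.

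Most log2 fold changes of the members lay above 0, while that of SCP2 lay below 0. A log2 fold change above 0 was found for 21 of the 29 members tested (72.4%), for 49.6% of all genes tested and for 56.8% of the genes with a mean above 10 CPM. The count of members above 0 was 19 with upper-quartile factors and 18 with library size only. Their median was 0.066 on the log2 scale, beside -0.0021 for all genes tested. In 16 of the 29 members the change was smaller than 1 standard error, and in 23 it was smaller than 2 standard errors. Gene length moved with the fold changes: among genes above 10 CPM, the median log2 fold change fell from 0.22 for exon lengths up to 1500 bases, which held 0 of the members above 10 CPM, to -0.033 over 8000 bases. From 1501 to 3000 bases the median was 0.12 for all genes and 0.034 for 2 members. From 3001 to 5000 bases it was 0.054 for all genes and 0.095 for 16 members. From 5001 to 8000 bases it was 0.010 for all genes and 0.24 for 4 members. Over 8000 bases 4 members had a median of -0.12, and SCP2 (8253 bases, log2 fold change -0.44) was 1 of them. The part of length in the members' values was not tested.

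**Figure D2:**
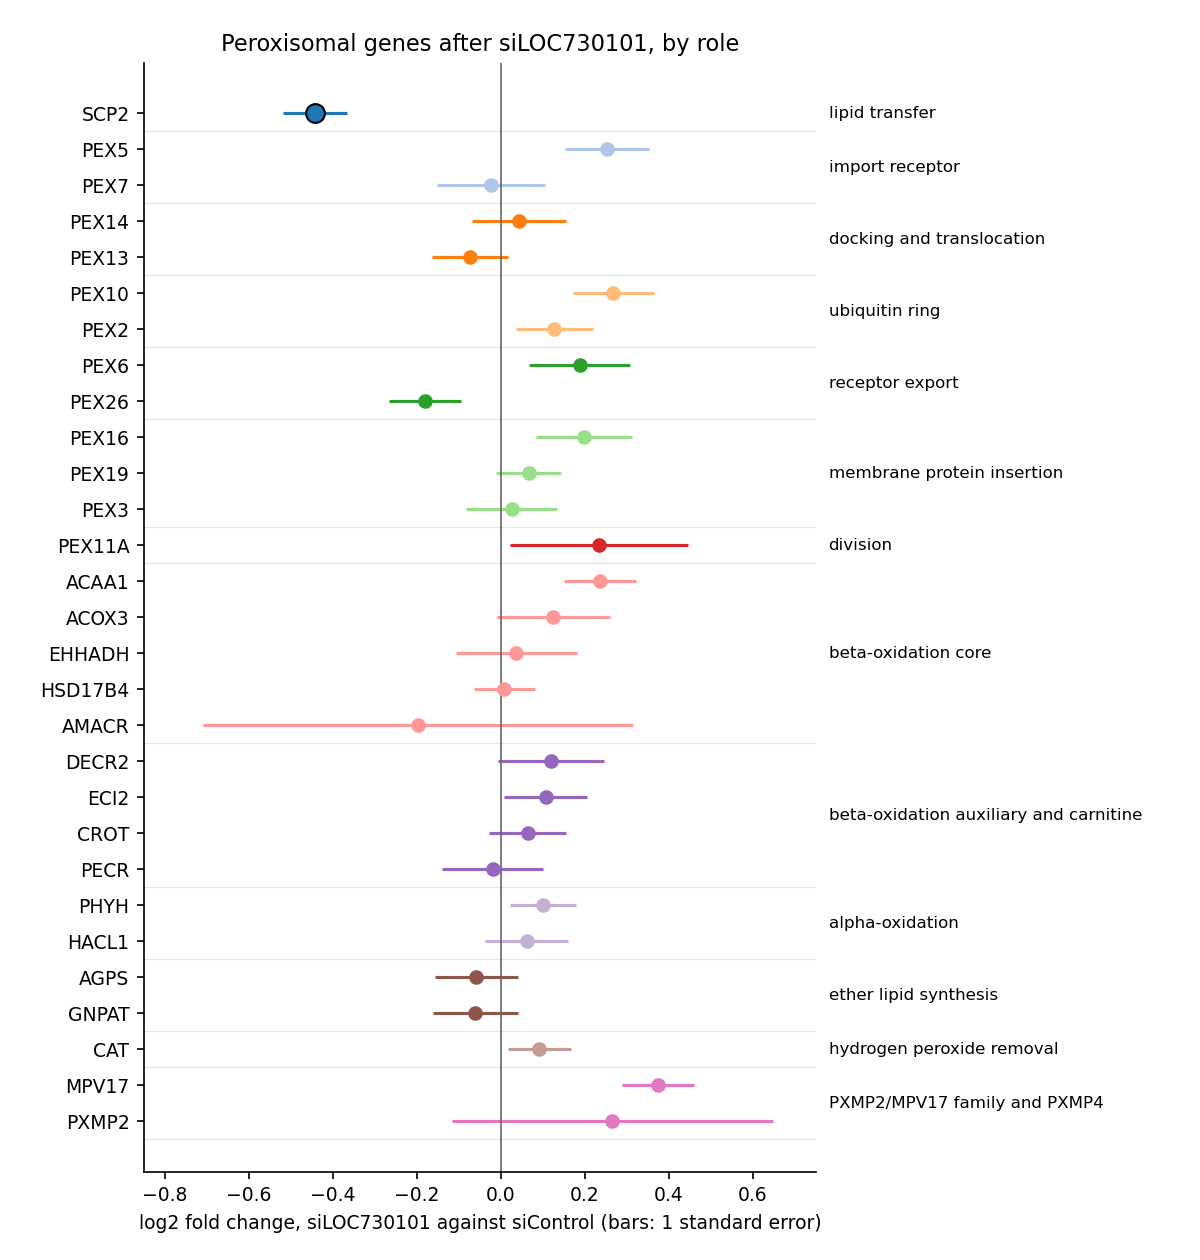
Log2 fold change of siLOC730101 against siControl (x axis, bars are 1 standard error) for the 29 members tested, grouped by role (right); the outlined point is the gene with an adjusted p under 0.05. SCP2 stands at -0.44, MPV17 at 0.37, and AMACR and PXMP2 have the widest bars.

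The peroxins were first compared by their step in import. PEX5, the receptor for the C-terminal targeting signal of most matrix enzymes, had 45.5 and 41.4 CPM in siControl and 49.0 and 54.5 CPM in siLOC730101. The groups did not overlap, and the log2 fold change was 0.25 (SE 0.10, unadjusted p = 0.0244, adjusted p = 0.351 in edgeR). PEX7, the receptor for the N-terminal signal carried by a few enzymes such as PHYH, ACAA1 and AGPS, had 26.6 and 30.3 CPM in siControl and 24.97 and 31.1 CPM in siLOC730101, so that the groups overlapped (log2 fold change -0.023, SE 0.13). Whether the receptors differ from each other in their change was not tested.

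PEX13 and PEX14 form the docking site for the loaded receptors. PEX13 had 77.5 and 90.0 CPM in siControl and 78.6 and 80.5 CPM in siLOC730101, with overlap (log2 fold change -0.074, SE 0.091). PEX14 had 26.1 and 27.5 CPM in siControl and 27.6 CPM in both siLOC730101 libraries (log2 fold change 0.043, SE 0.11). Both changes were within 1 standard error of 0, and that of PEX14 ranged from 0.0050 to 0.086 on removal of siControl replicate 1 or 2. PEX2 and PEX10 are ubiquitin ligase subunits that mark the receptor for export. PEX10 had 42.3 and 43.6 CPM in siControl and 49.8 and 53.6 CPM in siLOC730101, with no overlap. Its log2 fold change was 0.27 (SE 0.096, unadjusted p = 0.0139, adjusted p = 0.284 in edgeR). Of the exon bases of PEX10, 39.1% also lie in RER1 on the opposite strand. The counting command had no strand or overlap option, so reads on the shared bases count for neither gene. PEX2 had 71.6 and 72.1 CPM in siControl and 72.7 and 84.2 CPM in siLOC730101 (log2 fold change 0.13, SE 0.092). The value for PEX2 rested on siLOC730101 replicate 2, without which it was 0.015, while it was 0.24 without siLOC730101 replicate 1.

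PEX6, an ATPase that pulls the receptor from the membrane, and PEX26, which anchors it there, lay on opposite sides of 0. PEX6 had 27.8 and 23.5 CPM in siControl and 28.6 and 29.9 CPM in siLOC730101 (log2 fold change 0.19, SE 0.12), which became 0.076 without siControl replicate 2 and 0.31 without siControl replicate 1. PEX26 had 73.8 and 79.2 CPM in siControl and 67.1 and 67.9 CPM in siLOC730101, and apart from SCP2 it was the member whose siLOC730101 libraries both lay below siControl. Its log2 fold change was -0.18 (SE 0.087, unadjusted p = 0.0542, adjusted p = 0.475 in edgeR) and stayed between -0.23 and -0.13 over 14 alternatives. Its 8mer match shown above lies at positions 295 to 302 of a 3′ untranslated region of 17321 nucleotides.

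PEX3, PEX16 and PEX19 place proteins in the peroxisomal membrane. PEX16 had 29.3 and 30.1 CPM in siControl and 31.3 and 37.0 CPM in siLOC730101 (log2 fold change 0.20, SE 0.11), which became 0.069 without siLOC730101 replicate 2 and 0.32 without siLOC730101 replicate 1. PEX19, the most abundant peroxin per length, had 119.7 and 120.8 CPM in siControl and 123.0 and 128.7 CPM in siLOC730101, without overlap but with a log2 fold change of 0.066 (SE 0.078) that was 0.030 and 0.11 on removal of siLOC730101 replicate 2 or 1. PEX3 had 32.2 and 32.9 CPM in siControl, inside the 31.4 and 34.8 CPM of siLOC730101. Its log2 fold change was 0.025 (SE 0.11), and its direction turned with upper-quartile factors and with library size only. PEX11A, which elongates peroxisomes before they divide, was low, with 8.07 and 6.15 CPM in siControl and 9.42 and 7.30 CPM in siLOC730101, and the groups overlapped. Its log2 fold change of 0.23 (SE 0.21) lay between 0.045 and 0.44 over the removal of each library, lowest without siLOC730101 replicate 1 and highest without siControl replicate 1. Over the 12 peroxins the median log2 fold change was 0.096, and 0 passed an adjusted p of 0.05 in edgeR, with 2 at an unadjusted p under 0.05.

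The core enzymes of peroxisomal beta-oxidation were then examined. HSD17B4, the multifunctional enzyme for branched and very long chains, had the highest level of the members. It had 460.0 and 433.3 CPM in siControl and 459.4 and 439.0 CPM in siLOC730101, and the groups overlapped (log2 fold change 0.0082, SE 0.072). ACAA1, the thiolase for straight chains, had 108.5 and 123.6 CPM in siControl and 132.1 and 141.2 CPM in siLOC730101, without overlap. Its log2 fold change was 0.24 (SE 0.086, unadjusted p = 0.0151, adjusted p = 0.291 in edgeR). It passed in 1 of 14 alternatives, the removal of siLOC730101 replicate 1, which leaves 1 library in that group and called many more of all genes. The log2 fold change was 0.29 there, and 0.15 without siControl replicate 1. SCPx from SCP2 and ACAA1 are thus the peroxisomal thiolases of the list, and their genes lay on opposite sides of 0. The counts of SCP2 do not separate SCPx from the short product. Whether these genes differ from each other in their change was not tested. In ACAA1, 21.2% of exon bases also lie in other genes, mostly in DLEC1 on the opposite strand, which had 58 to 97 counts in a library.

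The further core enzymes did not separate the groups. ACOX3, an oxidase for branched chains, had a log2 fold change of 0.12 (SE 0.13), and EHHADH, the multifunctional enzyme for straight chains, had 0.036 (SE 0.14). AMACR, the racemase that prepares branched chains for oxidation, had 72 and 104 counts in siControl against 29 and 91 in siLOC730101. This is 1.33 and 2.22 CPM against 0.71 and 2.40 CPM, with a log2 fold change of -0.20 (SE 0.51) that turned to 0.44 without siLOC730101 replicate 1 and to 0.22 without siControl replicate 2. Of the exon bases of AMACR, 72.3% also lie in exons of other genes, and the part of this in its level was not tested. Most of these bases lie in the read-through gene C1QTNF3-AMACR on the same strand, which had 2 to 8 counts. The counting command had no option to assign a read to overlapping genes, so reads on these bases count for neither gene, and 1202 exon bases were left to AMACR alone.

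**Figure D3:**
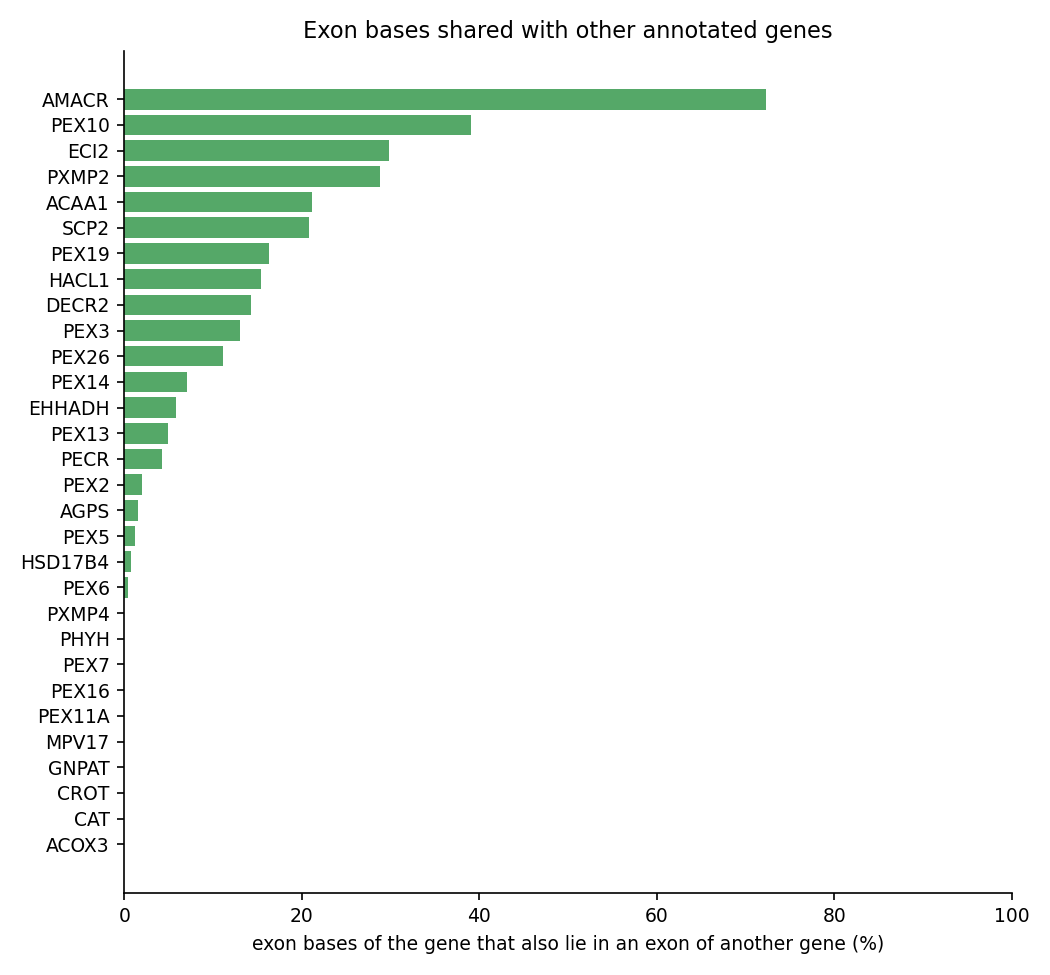
Share of the exon bases of each of the 30 members that also lie in an exon of another gene of the count table (x axis, percent). AMACR stands at 72.3% and PEX10 at 39.1%, and SCP2 at 20.8%.

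The auxiliary enzymes act on double bonds and on the export of shortened chains. ECI2 (an enoyl-CoA isomerase), DECR2 (a dienoyl-CoA reductase), PECR (an enoyl-CoA reductase) and CROT (carnitine octanoyltransferase) had log2 fold changes of 0.11, 0.12, -0.020 and 0.063, with standard errors of 0.092 to 0.13. All 4 overlapped between the groups. DECR2 had 21.96 and 26.3 CPM in siControl and 24.8 and 27.6 CPM in siLOC730101, and PECR had 25.7 and 23.6 CPM in siControl and 23.0 and 25.6 CPM in siLOC730101. CROT, which holds a 7mer-m8 match, had 71.1 and 65.7 CPM in siControl and 75.3 and 67.6 CPM in siLOC730101. In ECI2 and in DECR2, 29.8% and 14.3% of exon bases also lie in other genes.

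Alpha-oxidation removes a single carbon from phytanic acid. PHYH, its hydroxylase, had 112.1 and 117.0 CPM in siControl and 120.7 and 124.7 CPM in siLOC730101, which did not overlap, with a log2 fold change of 0.099 (SE 0.079, adjusted p = 0.719 in edgeR). HACL1, the lyase of the same route, had 42.1 and 46.9 CPM in siControl and 45.9 and 46.9 CPM in siLOC730101 (log2 fold change 0.061, SE 0.099), with overlap. GNPAT and AGPS carry out the first steps of ether lipid synthesis, and both lay slightly below 0. GNPAT had 40.4 and 44.3 CPM in siControl and 41.2 and 40.1 CPM in siLOC730101 (log2 fold change -0.061, SE 0.10). AGPS had 47.8 and 53.8 CPM in siControl and 49.2 and 48.4 CPM in siLOC730101 (log2 fold change -0.058, SE 0.098). Each overlapped between the groups.

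CAT, the catalase that removes the hydrogen peroxide made by the oxidases, had 151.9 and 150.5 CPM in siControl and 157.5 and 164.7 CPM in siLOC730101. The groups did not overlap, yet the log2 fold change was 0.092 (SE 0.075, adjusted p = 0.729 in edgeR), and it was 0.057 without siLOC730101 replicate 2. The peroxisomal enzyme genes other than SCP2 and the membrane protein genes together held 16 tested genes, of which 12 had a log2 fold change above 0 and 0 passed an adjusted p of 0.05 in edgeR, with 2 at an unadjusted p under 0.05.

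MPV17 had the highest log2 fold change of the members. MPV17 was first described as a peroxisomal protein and is now placed in the inner mitochondrial membrane, where its loss depletes mitochondrial DNA. It gives its name to the family that includes PXMP2. Its counts were alike, 3532 and 3275 for siControl against 3502 and 3420 for the smaller siLOC730101 libraries, or 65.3 and 70.0 CPM against 85.2 and 90.1 CPM after scaling. Both siLOC730101 libraries were higher. The means were 67.7 ± 3.27 CPM (SD, n = 2) and 87.7 ± 3.43 CPM (SD, n = 2), a difference of 29.6% on the fitted scale. The log2 fold change of 0.37 (SE 0.086) had an adjusted p of 0.0920 in edgeR and did not pass the threshold. It passed in 6 of 14 alternatives, among them DESeq2 (adjusted p = 0.00954) and the removal of siLOC730101 replicate 1, which leaves 1 library in that group. It did not pass with upper-quartile factors (adjusted p = 0.112 in edgeR). The log2 fold change was 0.42 without siLOC730101 replicate 1, and it stayed between 0.33 and 0.43 over the alternatives. No exon base of MPV17 lies in another gene.

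**Figure D4:**
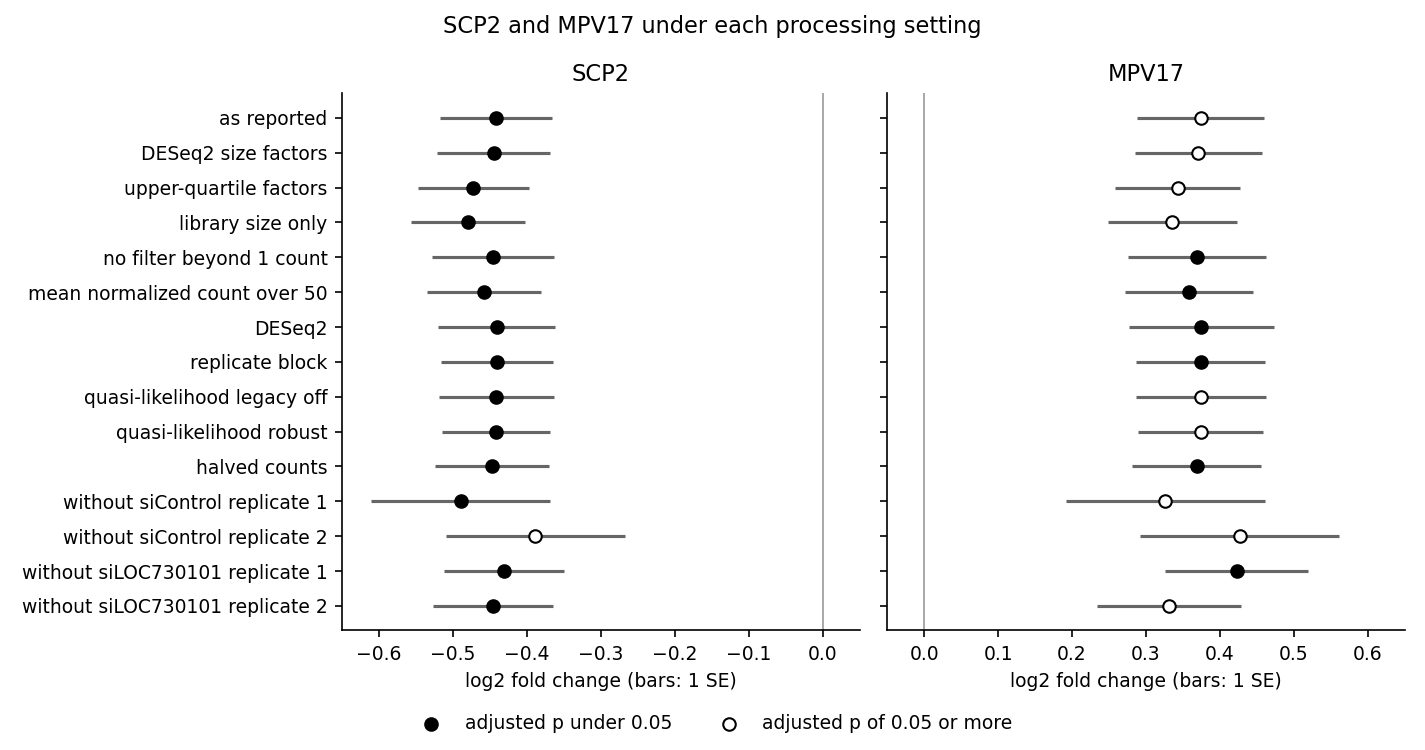
Log2 fold change (x axes, bars are 1 standard error) of SCP2 and MPV17 as reported and under 14 alternatives; filled points have an adjusted p under 0.05. SCP2 is filled in all settings but the removal of siControl replicate 2 (-0.39), and MPV17 is filled in 6 alternatives.

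PXMP2, a channel protein of the peroxisomal membrane, was low, with 89 and 71 counts in siControl against 73 and 77 in siLOC730101. Its log2 fold change of 0.26 had a standard error of 0.38, so a change of this size was not detectable at this depth, and it was 0.16 without siLOC730101 replicate 2. PXMP4, another peroxisomal membrane protein, had 0 counts in all 4 libraries and could not be tested. A count of 0 allows up to 3 counts, or 0.055 to 0.079 CPM per library, for counting error only. No exon base of PXMP4 is shared with another gene.

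The levels of the members were compared per kilobase of the MANE Select transcript. The counts, however, came from all annotated exons of a gene. These spanned 24901 bases in HSD17B4, 8253 in SCP2 and 5625 in MPV17, against transcripts of 2628, 2759 and 1002 bases. The ranks below hold for this divisor only. HSD17B4 stood first, with 170.0 ± 7.20 CPM per kilobase (SD, n = 2) in siControl. PHYH (74.3 ± 2.26), SCP2 (71.0 ± 3.46), ACAA1 (68.3 ± 6.28), MPV17 (67.5 ± 3.27) and CAT (66.0 ± 0.45, all SD, n = 2) followed. The ranges of SCP2, ACAA1 and MPV17 overlapped in siControl, so that these neighbours did not differ beyond their spread. In siLOC730101 they no longer overlapped with SCP2, which had 52.2 ± 0.075 CPM per kilobase (SD, n = 2), against 80.4 ± 3.77 for ACAA1 and 87.5 ± 3.42 for MPV17. By group means, SCP2 moved from rank 3 to rank 6 and MPV17 from rank 5 to rank 2. These moves restate the fold changes given above, and the ranks of these neighbours in siControl were not resolved. The import receptors PEX5 (13.4 ± 0.89) and PEX7 (19.6 ± 1.78) stood well below these enzymes in siControl. At the low end stood EHHADH, PEX11A, PXMP2 and AMACR, with 3.94 to 0.43 CPM per kilobase. These levels divide by the whole transcript and do not allow for shared exon bases, so the last place of AMACR, with 1202 unshared exon bases, cannot be told apart from reads left uncounted.

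**Figure D5:**
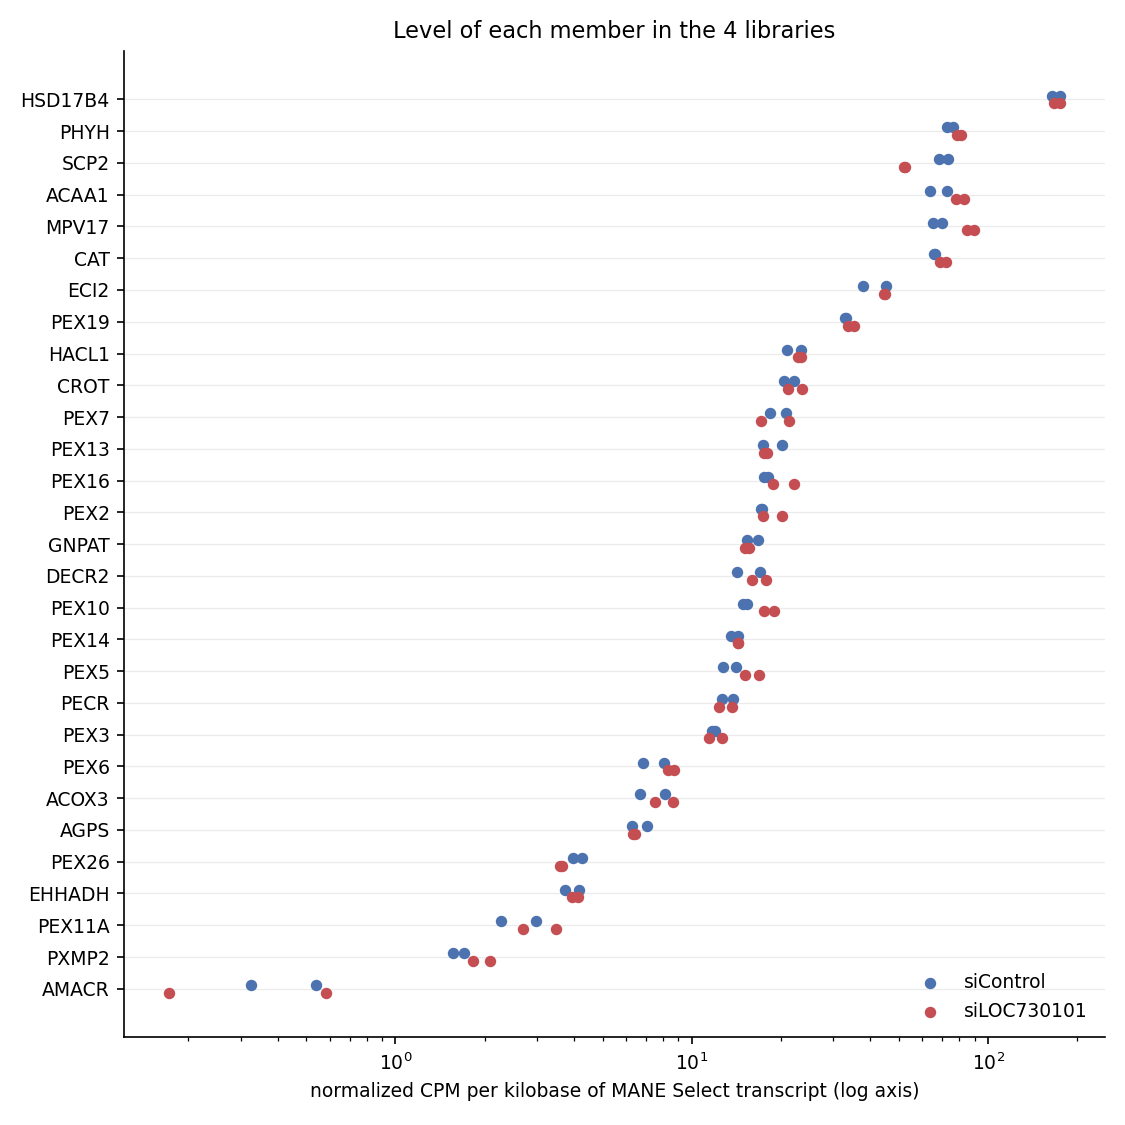
Normalized CPM per kilobase of MANE Select transcript (x axis, log scale) of the 29 members with counts, in the order of their siControl means; each point is a library. SCP2 moves left and MPV17 right between siControl and siLOC730101, while HSD17B4 stays first, at 165 to 175 CPM per kilobase.

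Another 53 genes with known roles in peroxisomes were read from the same fit to place the members, of which 47 were tested. At an adjusted p under 0.05, 0 were called in edgeR in either direction. DESeq2 called 4 higher, beside 234 higher of 31960 genes, some of which had no adjusted p and could not be called. At an unadjusted p under 0.05, 5 of 47 were higher and 1 was lower, beside 1053 higher and 461 lower of the 9886 genes above 10 CPM. The log2 fold changes of the 47 genes had a median of 0.050. Among genes of this list with a mean count over 50, FIS1 had the highest and ABCD3 the lowest log2 fold change. FIS1, an adaptor in the division of mitochondria and peroxisomes, had 84.6 and 79.7 CPM in siControl and 103.5 and 138.7 CPM in siLOC730101 (log2 fold change 0.56, SE 0.11, adjusted p = 0.0508 in edgeR). Its adjusted p ranged from 3.27e-15 to 0.0598 in the alternatives and passed in 11 of 14. Leaving out siLOC730101 replicate 2 gave a log2 fold change of 0.33. ABCD3, a transporter of branched acyl-CoA in the peroxisomal membrane, had 92.1 and 91.6 CPM in siControl and 80.5 and 77.1 CPM in siLOC730101 (log2 fold change -0.22, SE 0.082, adjusted p = 0.304 in edgeR).

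The further genes with an unadjusted p under 0.05, named after their values were seen, were PMVK of the mevalonate pathway, the peroxiredoxin PRDX5, the superoxide dismutase SOD1 and the CoA diphosphatase NUDT19. Their log2 fold changes were 0.50, 0.38, 0.32 and 0.22, and edgeR gave adjusted p-values of 0.0974, 0.116, 0.163 and 0.278. PMVK, PRDX5 and SOD1 were most abundant in siLOC730101 replicate 2, as was FIS1. These 4 genes have exon lengths of 1002, 860, 1975 and 1791 bases, in length classes where the median of genes above 10 CPM lay above 0. Without siLOC730101 replicate 2 the log2 fold change of PMVK was 0.30, that of PRDX5 was 0.21 and that of SOD1 was 0.16.

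PPAR nuclear receptors with their RXR partners and PGC-1 coactivators induce many peroxisomal genes in liver. In these cells all 7 genes of this group were within 1 standard error of 0, from -0.095 for RXRB to 0.15 for PPARGC1A, and 0 were called in edgeR (0 at an unadjusted p under 0.05).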

How the data were processed

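RNA was measured in 2 siControl and 2 siLOC730101 libraries of DaroR cells. The deposited values are raw counts, which the authors made with featureCounts 2.0.1 on exons of gencode version 41 (hg38), per the file header, with no paired-end, strand or overlap option. The paper's methods name STAR with hg19, and the submitters' processing notes name BWA. Of the counts from 1 to 20, 66.0% to 70.1% were even in each library, and halved counts were an alternative. Members and gene lists were chosen with earlier results of these data known.

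Counts were filtered with filterByExpr, scaled with TMM and tested with edgeR 4.0.16 (glmQLFit and glmQLFTest at package defaults, condition only, R 4.3.3) over 19349 genes, with Benjamini-Hochberg adjustment. Members with an unadjusted p under 0.05, and the ends of each role, are given in every library; of the other lists, called genes and the highest and lowest change above a mean count of 50. The labels do not say whether replicates were separate cultures, so p-values measure the spread between these libraries. The smallest two-sided p of an exact permutation test over these 4 libraries is 0.333. Site searches used GENCODE v44lift37 transcripts, and DESeq2 1.42.0 was an alternative.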

Additional observations from a re-analysis of the deposited data

How the results depend on the processing

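SCP2 kept its direction in 14 alternatives and its call in 13. The number of members called lower was 0 to 1 over the removal of each library, with 0 without siControl replicate 2. MPV17 was called higher with no filter beyond 1 count, with a mean normalized count over 50 and in DESeq2. The same call came with the replicate block, with halved counts and at an adjusted p under 0.1. In each of these settings the number of members called higher was 1. It was 4 by the rule of an unadjusted DESeq2 p under 0.05 with a base mean over 50. For the other peroxisomal genes, the number called higher was 1 with library size only, with the legacy method off and with the robust fit, 2 with a mean count over 50, with halved counts and at an adjusted p under 0.1, and 4 with no filter beyond 1 count, in DESeq2 and with the replicate block. It was 5 by the unadjusted DESeq2 rule, which called 1 lower. Over all genes, 324 of 31960 were called higher with no filter beyond 1 count. The number was 123 of 14231 with a mean count over 50 and 112 of 17031 with halved counts. Of 19349 genes, it was 58 with library size only, 87 with the legacy method off and 48 with the robust fit. Such totals were not counted at an adjusted p under 0.1 or by the unadjusted DESeq2 rule. Removing a library leaves 1 library in its group, so numbers called higher in those fits are not given. Without siLOC730101 replicate 1, where ACAA1, MPV17 and FIS1 passed, many more of all genes passed than with all 4 libraries. The members' median log2 fold change was 0.028 with library size only and 0.041 to 0.11 without 1 library. The median shift of all genes was at most 0.037 in size under any scaling. With the replicate number as a block, 485 genes were higher and 167 lower over the whole table, against 41 and 14 without it; deviations of same-numbered libraries correlated at 0.089 over 9886 genes, and the labels give the numbers no further meaning. DESeq2 called 234 higher and 63 lower of 31960 genes, some of which had no adjusted p. Directions turned for 16 genes, none of which passed the test. PEX3 was -0.0061 and HSD17B4 -0.022 with upper-quartile factors; PEX3 was -0.013, EHHADH -0.0015 and HSD17B4 -0.029 with library size only; and HSD17B4 was -0.0075 with a mean count over 50. When each library was left out, the ranges that crossed 0 were -0.19 to 0.14 for PEX7, -0.18 to 0.041 for PEX13, -0.052 to 0.11 for PEX3, -0.0046 to 0.27 for ACOX3, -1.33 to 0.44 for AMACR, -0.038 to 0.12 for EHHADH, -0.032 to 0.053 for HSD17B4, -0.011 to 0.24 for ECI2, -0.0053 to 0.26 for DECR2, -0.10 to 0.064 for PECR, -0.0083 to 0.14 for CROT, -0.014 to 0.14 for HACL1, -0.12 to 0.0089 for GNPAT, -0.14 to 0.032 for AGPS, -0.044 to 0.38 for PPARGC1A and -0.27 to 0.10 for RXRB. The cause of these shifts was not tested.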
